A study of Mus musculus with 2 samples.

Results

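The genes described here carry the cytokine signal that turns neural precursor cells into astrocytes: the ligand Clcf1, the receptor subunits Cntfr, Lifr, Il6st and Osmr, the kinases Jak1, Jak2 and Tyk2, the transcription factor Stat3 and the inhibitor Socs3. They were taken as the probe sets whose platform annotation gives 1 gene symbol and whose symbol is on this list, which gave 10 genes and 11 probe sets out of 19938 genes and 21789 probe sets with 1 symbol. RNA levels were measured on 2 whole-transcript arrays, 1 for neural precursor cells infected with an HMGN1 retrovirus and 1 for cells infected with a control retrovirus. Both cultures came from the forebrain of E11.5 embryos of Jcl:ICR mice, had been kept with FGF2 and EGF, were replated 3 days after infection and then spent 1 day without both growth factors. HMGN1 is a nucleosome-binding protein. The sources used here do not say whether infected cells were selected or what share of cells carried a virus. Each array thus reads a culture, and whether it was a pure population of infected cells is not known. With 1 array per virus there is no replicate, no test was possible, and every difference below describes these 2 RNA samples.

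Ligands of the LIF and CNTF family bind receptor complexes built around gp130, the product of Il6st. LIFR joins gp130 in the receptor for LIF, and CNTF and CLCF1 also need CNTFR, a subunit with no cytoplasmic tail of its own, whereas OSMR joins gp130 in the receptor for oncostatin M. JAK kinases held by the receptor tails phosphorylate STAT3, which enters the nucleus and switches on targets that include the astrocyte filament gene Gfap and Socs3, whose product then shuts the receptor off. In the embryonic forebrain this pathway, acting with BMP signals, is known for starting astrocyte formation after neurons have been made.

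STAT proteins bind the palindrome TTCNNNGAA. Of 2 STAT3 targets with opposite signs, Gfap was higher with the HMGN1 virus, by a log2 difference of 0.58. Socs3 was lower by much less, at -0.13 on its brighter probe set and -0.035 on its second. The promoters of these 2 genes are shown, a pair picked for its signs. Each is the 300 bases from 250 before to 50 after the annotated gene start (RefSeq, GRCm38.p6, minus strand, written 5′ to 3′), at chr11:117969317-117969616 for Socs3 and chr11:102897151-102897450 for Gfap. Capitals mark each match to the palindrome.
Socs3: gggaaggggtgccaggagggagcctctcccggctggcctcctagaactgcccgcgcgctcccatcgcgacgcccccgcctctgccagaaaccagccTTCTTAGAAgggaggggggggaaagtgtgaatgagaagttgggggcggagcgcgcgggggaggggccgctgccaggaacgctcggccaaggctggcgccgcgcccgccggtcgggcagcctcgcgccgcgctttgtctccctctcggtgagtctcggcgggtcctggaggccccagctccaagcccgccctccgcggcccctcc
Gfap: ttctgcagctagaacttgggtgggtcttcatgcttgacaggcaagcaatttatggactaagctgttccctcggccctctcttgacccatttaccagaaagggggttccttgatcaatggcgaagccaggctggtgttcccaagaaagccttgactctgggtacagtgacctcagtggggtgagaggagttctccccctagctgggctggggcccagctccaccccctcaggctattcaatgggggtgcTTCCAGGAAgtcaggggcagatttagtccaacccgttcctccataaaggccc

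The Socs3 window held 1 match, TTCTTAGAA, whose first base lies 154 bases before the annotated start, and the Gfap window held 1 match, TTCCAGGAA, that begins 2 bases before the start. Of the 10 cytokine and STAT3 genes, 9 had a promoter in the RefSeq table, and Socs3 alone among those 9 had a match, beside 9.55% of all 27025 genes with a promoter. The palindrome reads the same on both strands. Among 20 listed STAT3 targets with a promoter, 3 held it (Gfap, Bcl6 and Icam1), or 15%. Detected genes with a match differed between the viruses by a median of 0.029 (703 genes) and those without by 0.028, a description in which no direction was tested. A match is only a run of letters, binding was not measured, and bases outside the promoter windows were not searched.

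The deposited table holds 28944 probe set intensities per array, from 3.56 to 18892 with the HMGN1 virus and from 3.08 to 18209 with the control virus, with medians of 98.8 with the HMGN1 virus and 101 with the control virus. Differences are HMGN1 virus minus control virus on the scale of log2(intensity + 16), which understates the change of dim genes. A gene was taken as detected at or above a floor of 85.9, set so that 95% of 1035 olfactory receptor probe sets fall under it, which left 11325 genes. Those genes had a median difference of 0.027 and an SD of 0.111, and different probe sets of 1 gene scattered with an SD of 0.0891 over 683 genes, a measure that leaves out any variation between cultures. Hmgn1 itself read 348 with the HMGN1 virus and 230 with the control virus, a difference of 0.57. Levels of different probe sets cannot be compared with each other, so the genes are not ranked by level. In a bulk culture, more cells that use a gene and more RNA per cell cannot be told apart.

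**Figure D1:**
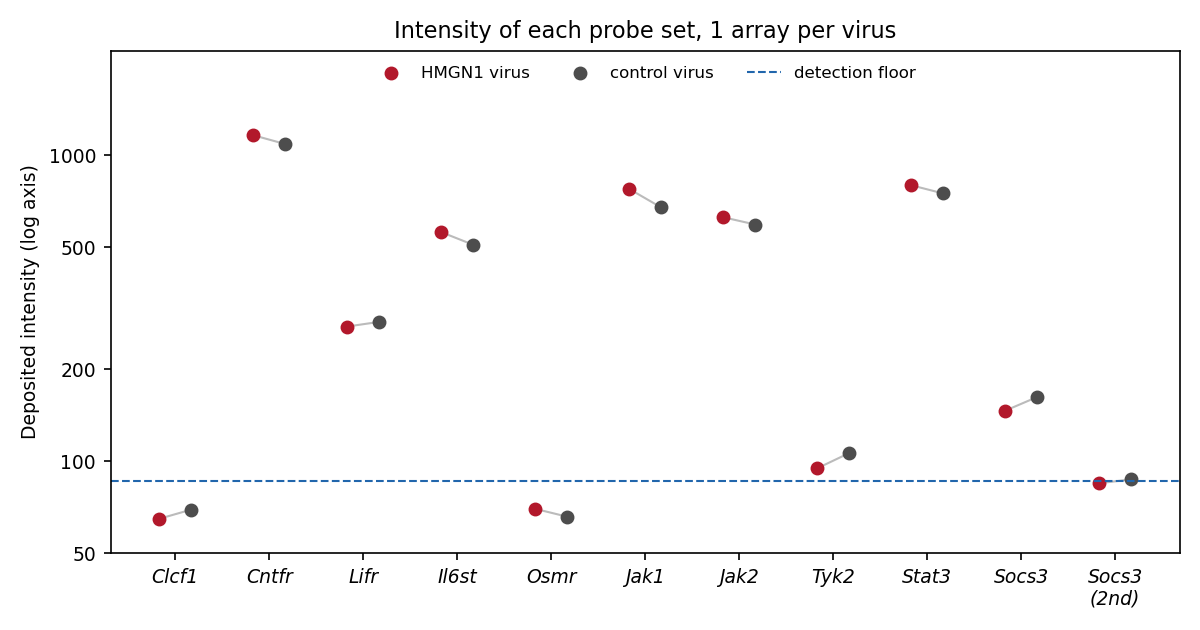
Deposited intensity (log axis) of each of the 11 probe sets, with the HMGN1 virus array in red at the left and the control virus array in grey at the right of each pair. The dashed line is the detection floor of 85.9. The paired points lie close together for every probe set, the widest gap in ratio being that of Jak1 (777 with the HMGN1 virus and 676 with the control virus), and Clcf1 and Osmr lie under the floor in both arrays.

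Of the 10 genes, 8 were above the floor, 5 of them higher and 3 lower with the HMGN1 virus. Over all detected genes 60.1% were higher and 38.4% lower by any amount, so a count of 5 of 8 (62.5%) is close to this background. The 8 signs were the same under every scaling and offset run, but a change of offset cannot change a sign. Centring on the median of detected genes subtracts 0.027, less than each of the 5 positive differences, so it could not change one either. At a size of 1.1-fold, 1 gene was higher (Jak1) and 1 lower (Tyk2), where 13.1% of all detected genes were that much higher and 7.2% that much lower. Both counts depended on the setting: with quantile normalization they were 2 higher and 0 lower, 0 were lower with an offset of 64, where Tyk2 came to -0.10, or with a stricter floor, and 2 were lower with an offset of 1 or with centring. None of the 8 reached a log2 difference of 0.32, a size passed by 0.494% of detected genes upward and 0.521% downward, and none reached 1.5-fold, which 0% of detected genes passed upward and 0.0706% downward on this scale. With an offset of 1 in place of 16, 3 genes passed 1.5-fold upward, and on the linear scale Gfap stood at 1.51-fold and Hmgn1 at 1.52-fold. The median difference of the 8 was 0.082, against 0.027 for all detected genes, with single values from -0.14 to 0.20.

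The ligand Clcf1 encodes a cytokine that signals through CNTFR, LIFR and gp130. Its intensity was 64.8 with the HMGN1 virus and 69.4 with the control virus, both under the floor and brighter than 84.9% of olfactory receptor probe sets. The difference of -0.080 is smaller than the scatter of equally dim signals, an SD of 0.141 over 172 olfactory receptor probe sets between 60 and the floor. Expression of Clcf1 was therefore not distinguishable from background in either culture.

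Among the receptors, Il6st, the shared subunit gp130, read 561 with the HMGN1 virus and 510 with the control virus. Its difference of 0.13 was the highest of the receptor genes, and 14.1% of detected genes differed at least that far upward. Cntfr, the subunit that gives a cell its response to CNTF and CLCF1, read 1164 with the HMGN1 virus and 1090 with the control virus, a difference of 0.094. That is about the size of the SD between probe sets of 1 gene.

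Lifr, the signalling partner of gp130, was the one detected receptor gene on the lower side. It read 276 with the HMGN1 virus and 285 with the control virus, a difference of -0.048, within the SD between probe sets. The gap between Il6st and Lifr was 0.18, or 1.44 times the SD of 0.126 that a difference between 2 probe sets of 1 gene has. Osmr, the oncostatin M subunit, read 69.8 with the HMGN1 virus and 65.8 with the control virus. Both values lie under the floor, and the difference of 0.069 is again smaller than the scatter of dim probe sets. The receptor subunits for LIF and CNTF were thus above background in both cultures, and the oncostatin M subunit was not.

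Of the JAK kinases, Jak1 and Jak2 were higher and Tyk2 lower. Jak1, the kinase that gp130 signalling depends on most, read 777 with the HMGN1 virus and 676 with the control virus. Its difference of 0.20 (1.15-fold) was the highest among the 10 genes and stood at place 526 of 11325, so 4.64% of detected genes were at least as high. Jak2, which also binds gp130, read 628 with the HMGN1 virus and 594 with the control virus, a difference of 0.077 that lies within the SD between probe sets and 0.12 from that of Jak1, or 0.95 times the SD of 0.126 above.

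Tyk2, the kinase shared with interferon receptors, read 94.7 with the HMGN1 virus and 106 with the control virus, a difference of -0.14, and 6.59% of detected genes were at least as low. Tyk2 was only just above the floor, where scatter is wider: the 500 detected genes nearest to it in brightness had an SD of 0.130, beside 0.101 around Jak1. The gap between Jak1 and Tyk2 was 0.34, the widest of any pair among the 8 detected genes. It was 2.70 times the SD of a difference between 2 probe sets of 1 gene, which holds no variation between cultures. A pair picked as the widest has a large gap by selection, so this ratio cannot set it apart. Differences of all detected genes had an SD of 0.111.

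Stat3, the factor that carries the signal to the nucleus, read 799 with the HMGN1 virus and 751 with the control virus. The difference of 0.087 is within the SD between probe sets, and 27.5% of detected genes were at least as high. The array reads Stat3 RNA and not its phosphorylated protein, so activity of the pathway was not measured.

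Socs3, the feedback inhibitor that STAT3 induces, read 146 with the HMGN1 virus and 162 with the control virus on its brighter probe set. The difference of -0.13 was close to that of Tyk2, and 7.51% of detected genes were at least as low. The second Socs3 probe set, annotated with a single accession, read 84.7 with the HMGN1 virus and 87.2 with the control virus. Its difference of -0.035 has the same sign, but its mean over both arrays lies just under the floor. Stat3 and its feedback target Socs3 thus had opposite signs, with a gap of 0.22, or 1.76 times the SD of a difference between 2 probe sets of 1 gene. This is 1 pair among many, and that SD holds no variation between cultures, so the ratio cannot set the pair apart. With the gene span trend described below removed, Stat3 stood at 0.041 and Socs3 at -0.12.

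**Figure D2:**
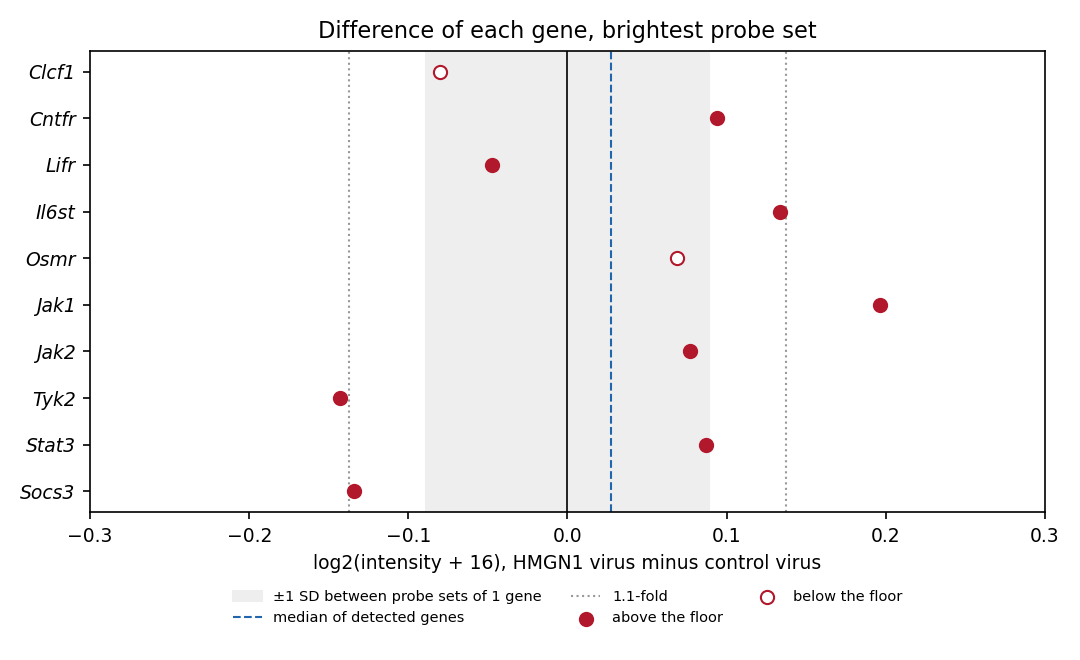
Difference of each gene (HMGN1 virus minus control virus, log2 scale) on its brightest probe set, with filled points above and open points below the detection floor. The grey band is 1 SD between probe sets of 1 gene (0.0891), the dotted lines are 1.1-fold and the dashed line is the median of all detected genes (0.027). Jak1 lies beyond the upper dotted line, Tyk2 beyond the lower one, Il6st and Socs3 just inside them, and Cntfr at the edge of the band.

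On these arrays the difference of a gene moved with its span, the distance from annotated start to end with introns (RefSeq, GRCm38.p6). Detected protein-coding genes of the shortest decile by span (0.231 to 4.29 kb) had a median difference of -0.027, and those of decile 9 (77.6 to 138 kb) had 0.055. Socs3, at 4.26 kb, falls in the shortest decile, and its difference was -0.11 relative to the median there. Jak1, at 113 kb, and Lifr, at 107 kb, share decile 9, where Jak1 differed from the median by 0.14 and Lifr by -0.10. Tyk2, at 27.3 kb, lay furthest from the median of its decile, at -0.18. Differences within single deciles had SDs from 0.0954 to 0.116, about the size of the values for Socs3 and Lifr.

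The genes of 39.6 to 61.3 kb came closer to the medians of their deciles: Il6st lay 0.085 above, Cntfr 0.045 above, Stat3 0.039 above and Jak2 0.028 above. Removing the span trend kept all 8 signs and took the median of the 8 genes to 0.036. Removing the intensity trend instead took it to 0.044. Both removals also shifted the background of all detected genes. With the intensity trend removed, the median of all detected genes was 0.00034 in place of 0.027. With the span trend removed, 50.2% of detected genes were higher in place of 60.1%. Each median given here or below with a trend removed includes this shift. Removal of the span trend moved Stat3 to 0.041, Jak2 to 0.030, Cntfr to 0.049, Il6st to 0.089 and Lifr to -0.10, each by over 1.5 times. These moves include the same shift of the background. The part of span in these differences was not tested further.

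**Figure D3:**
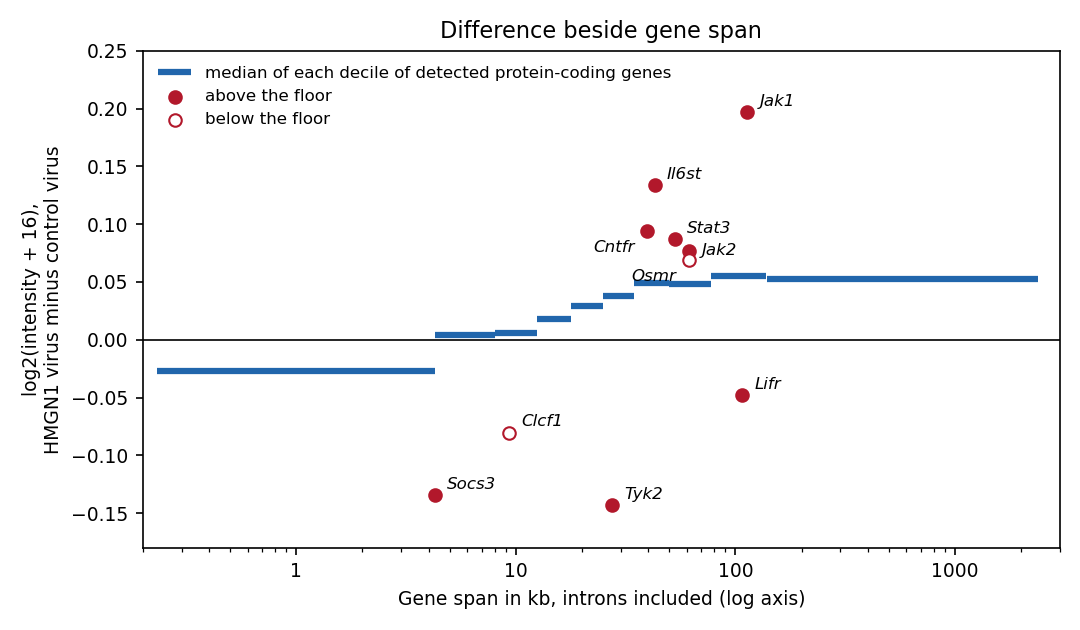
Difference of each of the 10 genes (HMGN1 virus minus control virus, log2 scale) against its gene span in kb (log axis), with open points below the detection floor. Blue bars give the median difference of each decile of detected protein-coding genes over the spans it covers. The bars climb from -0.027 to 0.055, Jak1 lies furthest above the bar at its span, Il6st less far, and Tyk2, Lifr and Socs3 lie below theirs.

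Other genes of the pathway were read from lists grouped by role. Of 9 other ligands and secreted partners of the family, 7 had a probe set with 1 symbol and 1 of these was above the floor, namely Il27, an immune cytokine, at 109 with the HMGN1 virus and 113 with the control virus. Lif read 46.7 with the HMGN1 virus and 44.6 with the control virus, and Ctf1, a cardiotrophin gene, read 71.7 with the HMGN1 virus and 76.0 with the control virus. Lif and Ctf1, like Clcf1, were thus not distinguishable from background, and Cntf was not analysed here. Among other receptor genes, listed as partners of gp130 or as parts of complexes that use JAK1 or TYK2, 4 of 12 were above the floor. These 4 were interferon receptor genes, from Ifnar1 at -0.018 to Ifngr2, a subunit of the interferon gamma receptor, at 0.17 (649 with the HMGN1 virus and 577 with the control virus). Their median was 0.089, or 0.055 with the span trend removed.

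Of the remaining JAK and STAT genes, 3 of 5 with a probe set were detected. Stat2, a factor of interferon signalling, was highest at 0.15 (148 with the HMGN1 virus and 132 with the control virus), and Stat5a was lowest at -0.017. Their median of 0.020 changed sign to -0.0076 when arrays were centred on the median of detected genes.

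Of 14 inhibitors other than Socs3, 13 were detected, 10 higher and 3 lower, beside 60.1% higher among all detected genes, and their median was 0.056, which came to 0.0024 with the span trend removed. Cish, a feedback inhibitor of STAT5 signalling, was highest at 0.20 (104 with the HMGN1 virus and 88.5 with the control virus). Socs1, which binds JAK kinases directly, was lowest at -0.14 (93.8 with the HMGN1 virus and 105 with the control virus). Cish and Socs1 are both near the floor, so the ends of this list are its dimmest signals. Ptpn2, a JAK phosphatase, gave -0.12 on its brighter probe set and 0.095 on the other.

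The arm that links gp130 to ERK and PI3K had 8 detected genes and all 8 were higher, beside 60.1% of all detected genes. Their median of 0.097 fell to 0.046 with the span trend removed. Shc1, an adaptor, was highest at 0.23 (105 with the HMGN1 virus and 87.8 with the control virus), and Gab1, a docking protein, was lowest at 0.013. Gab1 and the adaptor gene Grb2 (0.018) lay under the median of all detected genes, 0.027, so centring turns them lower. Shc1 lay just above the floor, and the stricter floor left 7 genes. The 6 coactivators and SMAD partners of STAT3 were all detected and all higher, beside the same 60.1%. They ran from 0.024 for the acetyltransferase gene Ep300, also under 0.027, to 0.083 for the BMP mediator Smad5. Their median of 0.049 became 0.00098 once the span trend was removed. Over every listed gene other than the 10, 42 of 51 detected genes were higher (82.4%) and 8 lower, beside 60.1% higher among all detected genes. With the arrays centred on the median of detected genes, 34 of 51 (66.7%) were higher, beside 49.996% of all detected genes. With the span trend or the intensity trend removed, 33 of 51 (64.7%) were higher, beside 50.2% of all detected genes. Quantile normalization gave 41 of 51 (80.4%), beside 58.8%, and no filter on dim probe sets gave 53 of 76 (69.7%), beside 51.8% of all genes. A mean over probe sets raised the share to 43 of 51 (84.3%), beside 60.02%. The stricter floor raised it to 39 of 44 (88.6%), beside 62.7%. No test was made of these shares.

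**Figure D4:**
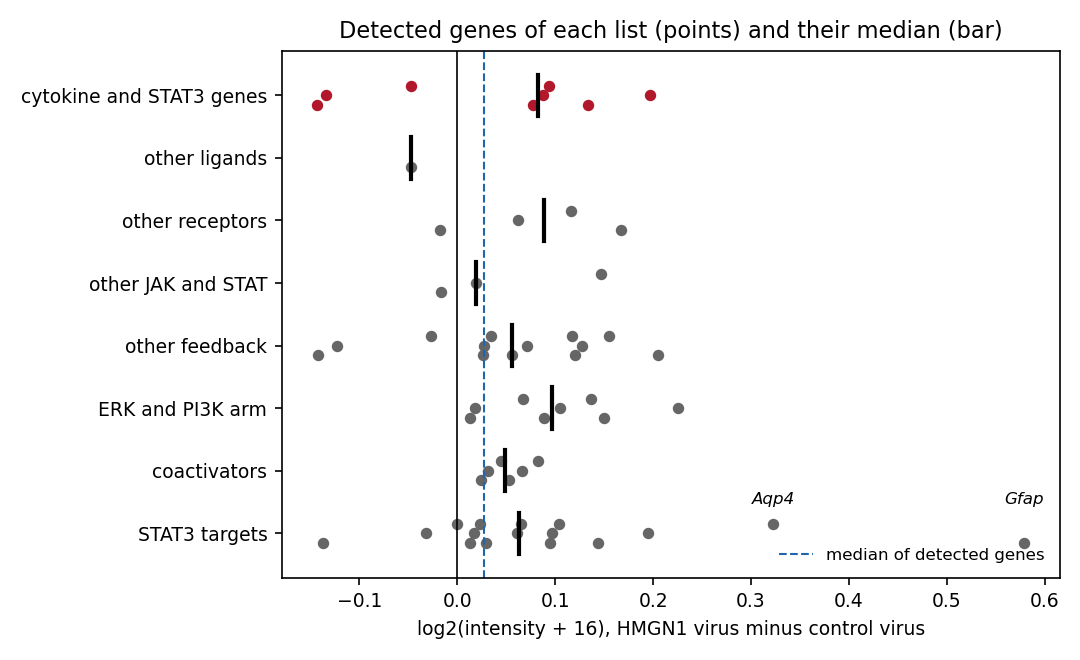
Difference (HMGN1 virus minus control virus, log2 scale) of each detected gene, by list, with a black bar at each list's median and a dashed line at the median of all detected genes (0.027). The other points lie between -0.14 and 0.23, and Gfap (0.58) and Aqp4 (0.32) stand apart from the other STAT3 targets.

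Genes used as STAT3 targets showed a wide spread. Of 25 listed, 16 were above the floor, 13 higher and 2 lower (60.1% and 38.4% of all detected genes), with 1 gene at the same value in both arrays, and the median was 0.063, or 0.031 with the span trend removed. Gfap, the intermediate filament of astrocytes, read 615 with the HMGN1 virus and 406 with the control virus, a difference of 0.58. Aqp4, the astrocyte water channel, read 237 with the HMGN1 virus and 187 with the control virus, a difference of 0.32. These were the 2 targets past a log2 difference of 0.32, which 0.494% of all detected genes passed upward. Aqp4 passed it by less than the median of all detected genes, 0.027, so centring takes Aqp4 under that size. Gfap and Aqp4 each differed by more than any of the 10 cytokine and STAT3 genes.

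The other detected targets ran from Bcl3 at -0.14 (90.9 with the HMGN1 virus and 102 with the control virus) to the adhesion gene Icam1 at 0.19 (125 with the HMGN1 virus and 108 with the control virus). Between them, Serpina3n differed by 0.14, the survival gene Mcl1 by 0.10, Myc by 0.029 and Pim1 by -0.032. S100b, a listed astrocyte gene like Gfap and Aqp4, differed by only 0.017. It read 82.2 with the HMGN1 virus and 81.1 with the control virus, just under the floor. The acute response genes Fos (79.4 with the HMGN1 virus and 85.5 with the control virus), Junb (68.6 with the HMGN1 virus and 68.8 with the control virus) and Cebpd (42.0 with the HMGN1 virus and 48.3 with the control virus) were under the floor in both cultures.

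Cells labelled as neural precursors carried the defining markers of that type, with all 8 listed precursor genes detected (median -0.0029). Within them Slc1a3 was at 0.15 and Prom1 at -0.24. All 6 neuron and all 6 oligodendrocyte lineage genes were detected too. Past 1.1-fold, a size that 13.1% of all detected genes passed upward and 7.2% downward, were Stmn2 at 0.22, Tubb3 at -0.17, Rbfox3 at -0.15, Gpr17 at 0.33, Mbp at 0.28 and Olig2 at -0.16. Markers of cell types from outside the neural lineage were mostly under the floor: 0 of 8 endothelial genes were detected, with summed intensities of 412 with the HMGN1 virus and 435 with the control virus, and 2 of 8 microglia genes, with sums of 490 with the HMGN1 virus and 513 with the control virus. Of 8 mesenchyme and pericyte genes 5 were detected, none brighter than 167, with sums of 797 with the HMGN1 virus and 805 with the control virus and Col1a1 at -0.19. Of 3 erythroid genes with a probe set none was detected. The part of these cells in the differences of Lifr and Il6st was not tested.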

How the data were processed

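Neural precursor cells with an HMGN1 or a control retrovirus were compared on 1 array each. RNA was biotin-labelled with a GeneChip whole-transcript (WT) kit, per the protocols in the labels. The deposited intensity values are linear and per probe set; the background correction, normalization and summarisation behind them are not given in the sources used here, and no further normalization was applied. GEO's platform annotation gave 1 symbol to 21789 probe sets and several to 1621, and left 5534 unnamed here; 21698 matched RefSeq (GRCm38.p6) by gene number. A gene took its brightest probe set. Differences are on log2(intensity + 16), computed here with Python 3.11.15, numpy 2.4.6 and pandas 2.3.3; trends were fitted by lowess (span 0.3, statsmodels 0.14.6). The code was tested on simulated data. With 1 array per group no p-value exists; the number of arrays limits the precision.

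The genes, lists and sizes were chosen with earlier results of these data known. Named were all 10 genes, Hmgn1, Gfap, Aqp4, the highest and lowest detected gene of each list, list genes past a log2 difference of 0.32 and markers past 1.1-fold. Lif, Ctf1, Ptpn2, Grb2, Icam1, Serpina3n, S100b, Myc, Mcl1, Pim1, Fos, Junb and Cebpd were named after their values were seen. With 2 arrays no likeness of pattern between genes can be measured. Alternatives were offsets of 1 and 64, centring, quantile normalization, the intensity trend taken out, a mean over all probe sets, other floors and sizes and, added after seeing the data, removal of the gene span trend. Protein sequences were not used here.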

Additional observations from a re-analysis of the deposited data

How the results depend on the processing

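All 84 alternative values of the 10 genes, Hmgn1 and Gfap kept their sign and moved less than the probe set SD of 0.0891. Much of this was fixed in advance. A change of offset cannot change a sign, and a mean over probe sets could move only Socs3. Centring subtracted less than any of the positive differences. The 84 values come from the same 2 arrays and do not measure how repeatable a sign is. Jak1 ran from 0.14 to 0.20, Il6st from 0.089 to 0.14, Stat3 from 0.041 to 0.089, Tyk2 from -0.18 to -0.10 and Socs3 from -0.16 to -0.085. The count of the 10 genes at least 1.1-fold higher, 1, became 2 with quantile normalization and 0 at a log2 difference of 0.32. The count at least 1.1-fold lower, 1, became 2 with an offset of 1 and with centring, and 0 with an offset of 64, quantile normalization, a floor above 99% of olfactory receptor probe sets (which leaves out Tyk2) and at a log2 difference of 0.32. Among all detected genes the count at least 1.5-fold higher, 0, became 3 with an offset of 1 and 3 with no filter on dim probe sets, 56 at a log2 difference of 0.32 and 1487 at 1.1-fold, and the count lower, 8, became 59 at that difference and 815 at 1.1-fold. The median of the 8 detected genes, 0.082, ran from 0.036 to 0.087. The median of the other JAK and STAT genes (0.020) changed sign with centring (-0.0076) and with the gene span trend removed (-0.031). Apart from the change of size, the stricter floor and centring, which act by construction, the cause was not tested. The higher floor left no detected gene among the other ligands, so it gave no value there. Centring moved the median of detected genes by 0.027, which takes Aqp4 under a log2 difference of 0.32. No paired analysis was possible because each virus has 1 array, and no replicate could be left out. Signal near the floor of 85.9 limits Tyk2, and Clcf1 and Osmr lie under it.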
